A study of Homo sapiens with 6 samples.

Results

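The genes described here are 41 genes of glycolysis and of the HIF response, chosen by symbol from the 23228 genes of the count tables. They run from glucose uptake to lactate export (23 genes, without pyruvate kinase), and then to 15 other HIF targets and 3 HIF subunits. All 41 symbols were found in the tables, and 40 passed edgeR's filter on low counts and were tested. The exception was CA9, a carbonic anhydrase of hypoxic tumours, which had 0 reads in all 6 libraries, a count that allows up to 3 reads per library.

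The RNA came from RL95-2, an established line of human endometrial carcinoma cells grown in RPMI with serum before the experiment. The 3 control samples were then kept in serum-free RPMI mixed with an equal volume of DMEM, and the 3 ADP-CM samples in serum-free RPMI mixed with an equal volume of ADP-CM, the DMEM in which mature adipocytes of human visceral fat had been kept, for 24 h in both groups. The study set these groups against each other to see what adipocyte products change in the transcriptome of the tumour cells. In bulk RNA, fewer cells of a kind and less RNA per cell cannot be told apart. All libraries come from 1 cell line, and nothing in the labels says whether the replicates were separate experiments, so the p-values measure the spread between these 6 samples only.

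Glycolysis splits glucose into pyruvate in the cytosol, and lactate dehydrogenase turns pyruvate into lactate, which monocarboxylate transporters carry out of the cell. HIF is a pair of proteins, an oxygen-sensitive alpha subunit (HIF1A or EPAS1) and the stable partner ARNT. With oxygen present, the prolyl hydroxylases of the EGLN family mark the alpha subunit for VHL, which has it degraded, so HIF activity is set largely at the protein level. When oxygen is low, HIF binds short DNA motifs beginning in ACGTG or GCGTG near its targets, many of which are glycolytic enzymes.

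Between 16262614 and 18363033 reads per library lay on genes. The epithelial and endometrial markers set for these cells were all detected, with a summed level of 5660 to 5816 CPM (gene reads relative to the library total, scaled by TMM) in control and 4962 to 5065 in ADP-CM, although MUC1 had no more than 68 reads in any library. Of those 9 markers 2 were raised and 5 lowered. None of 10 adipocyte markers passed the filter, and ADIPOQ, LEP, CIDEA and AQP7 had 0 reads in every library. Their summed level was 0.801 to 1.18 CPM in control and 0.994 to 1.304 in ADP-CM. The stromal list summed to 61.5 to 68.4 CPM in control and 78.3 to 79.1 in ADP-CM, nearly all of it from COL1A1, with PDGFRA at no more than 1 read per library. The leukocyte list summed to 6.96 to 8.17 and 9.81 to 11.9 CPM, mostly CD68, with MS4A1 at 0 everywhere. The endothelial list summed to 60.8 to 67.0 and 54.6 to 62.1 CPM, mostly CDH5, with KDR at 0 everywhere. Reads on no gene were 10.2 to 10.3% of the counted reads in control and 11.5 to 11.6% in ADP-CM. The part of these differences in the results below was not tested.

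ADP-CM moved this gene group in both directions by small amounts. Here log2FC is the log2 ratio of ADP-CM to control, SE its standard error, and FDR the Benjamini-Hochberg p from the quasi-likelihood test of edgeR. With an FDR below 0.01, 12 of the 40 tested genes were raised and 8 lowered, where 13.5% of all tested genes were raised, 13.0% lowered and 26.5% moved either way. The groups did not overlap for 16 higher and 10 lower members, against 22.7% and 22.8% of all tested genes. No member changed by more than 1.5-fold, at any p-value and also with DESeq2, while 2.27% of all tested genes did so at an adjusted p-value under 0.01. The median log2 fold change was 0.03 over the members and -0.00 over all tested genes. Abundant genes passed the test more often than all genes did. Of 21 members with a mean of at least 100 CPM, 7 were raised and 6 lowered, and of all such genes 21.9% were raised, 21.9% lowered and 43.9% either. In that class 0.481% of genes were called beyond 1.5-fold, and the groups lay apart for 10 higher and 7 lower members, against 31.3% and 29.8% of genes.

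**Figure D1:**
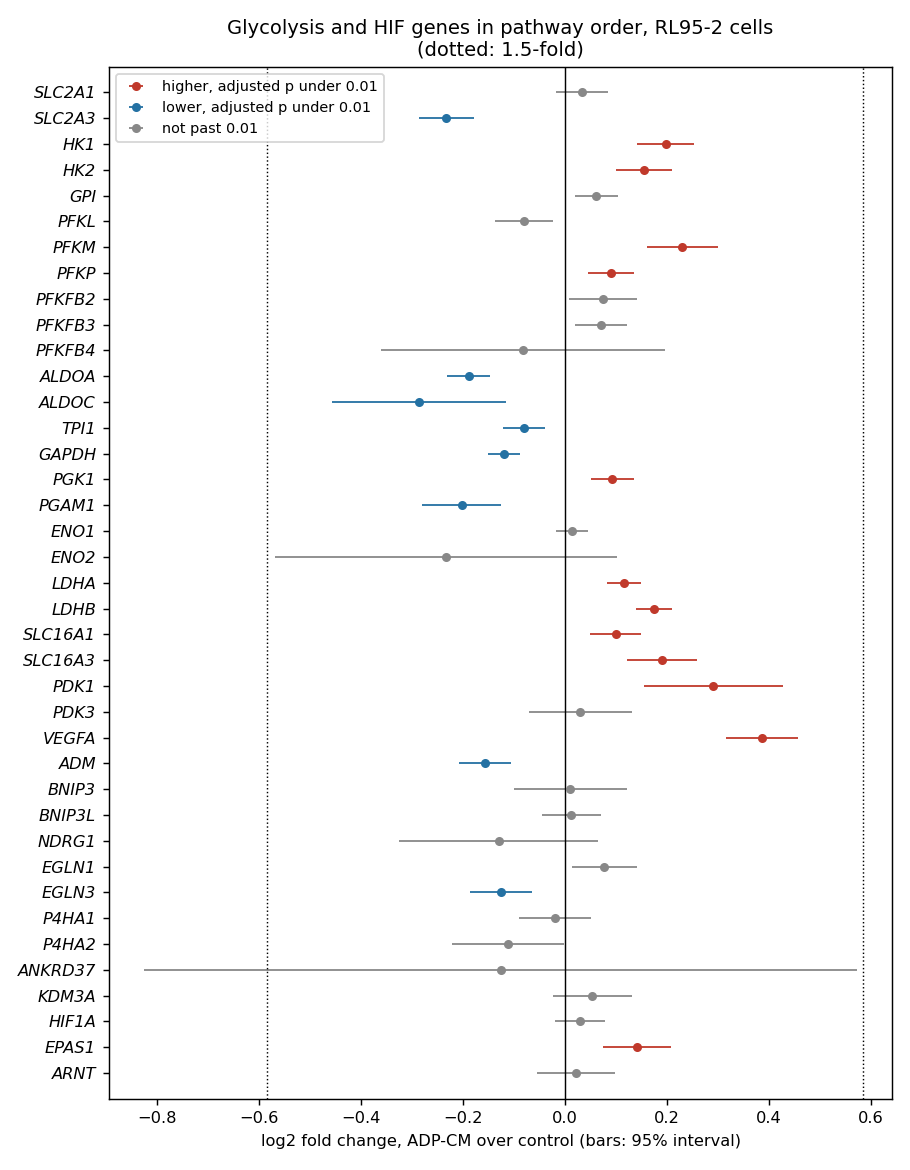
Log2 fold change of each tested gene (horizontal axis, ADP-CM over control, bars are 95% intervals of edgeR's fit) in pathway order from top to bottom, with CA12 left out for its low counts. Red points are higher and blue points lower at an adjusted p-value under 0.01, and all points lie between the dotted lines at 1.5-fold.

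Within the 23 glycolysis genes, 9 were raised, 6 were lowered and 8 were not past the threshold. Among all tested genes 13.5% were raised and 13.0% lowered, and among those with a mean of at least 100 CPM 21.9% each. Summed over the isozymes of each step, the 3 ADP-CM libraries lay above the 3 control libraries at 6 of 12 steps (hexokinases, glucose phosphate isomerase, phosphofructokinases, PGK1, lactate dehydrogenases and lactate transporters). They lay below at 5 steps (glucose transporters, aldolases, TPI1, GAPDH and PGAM1) and overlapped at the enolases. Pyruvate kinase, which acts between the enolases and the lactate dehydrogenases, is outside the 23 genes and these 12 steps. For its gene PKM every ADP-CM library lay below every control library (log2FC -0.06, edgeR FDR 0.000943). Among single genes with a mean of at least 100 CPM, the groups lay apart above control for 31.3% and below for 29.8%. The 23 genes together held 1.11% ± 0.0025 of gene reads without ADP-CM and 1.12% ± 0.0060 with it (SD, n = 3). Without GAPDH the share was 0.830% ± 0.0030 and 0.861% ± 0.0019.

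**Figure D2:**
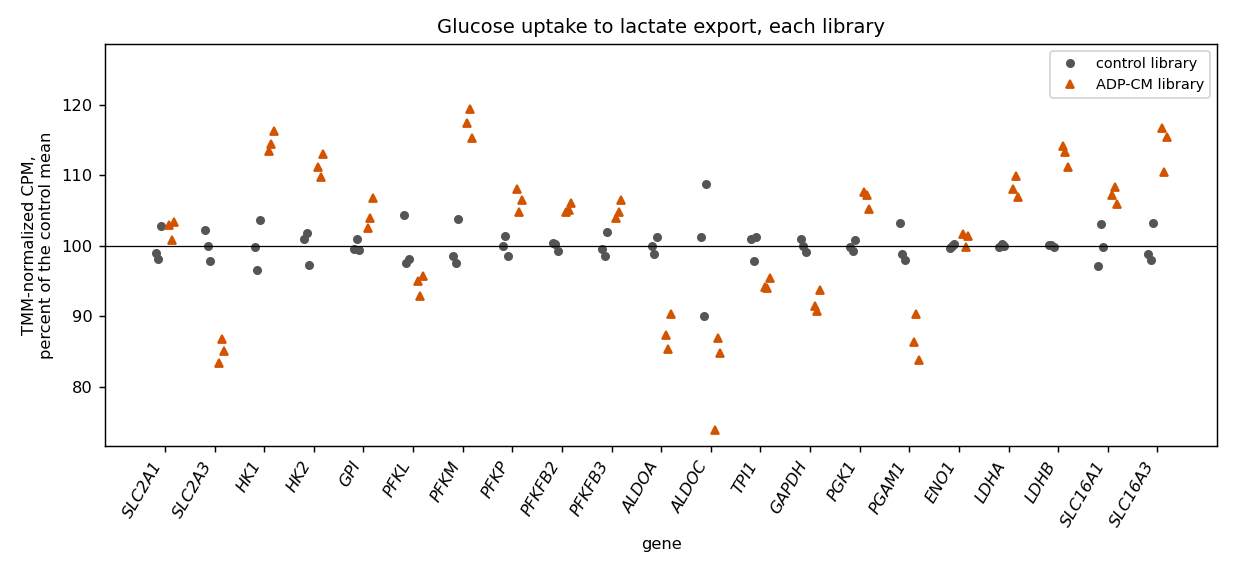
Level of each glycolysis gene in each library (vertical axis, TMM-normalized CPM as percent of the mean of the 3 control libraries), circles for control and triangles for ADP-CM. The triangles sit above the circles for HK1, HK2, PFKM, LDHA and LDHB and below them for SLC2A3, ALDOA, GAPDH and PGAM1, while ENO1 and SLC2A1 overlap. PFKFB4 and ENO2 are left out for their low counts.

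Glucose enters through SLC2A1 and SLC2A3, the transporters GLUT1 and GLUT3. SLC2A3 (chromosome 12, 8071826 to 8171603, hg19) had 205.5, 201.1 and 196.7 CPM in control and 167.7, 174.5 and 171.2 in ADP-CM. All 3 ADP-CM libraries were below all controls (log2FC -0.23, SE 0.027, edgeR FDR 1.36e-10). SLC2A1, known as a HIF target, had 209.3, 207.4 and 217.2 CPM in control and 217.5, 212.9 and 218.3 in ADP-CM. These values overlapped, and the 95% interval of the log2 fold change was -0.02 to 0.08 (edgeR FDR 0.333). SLC2A1 made up 51.2% ± 1.09 of the reads of both transporters without ADP-CM and 55.8% ± 0.777 with it (SD, n = 3).

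Hexokinase, which traps glucose in the cell as its phosphate, rose in both of its main isozymes. HK1 had 160.6, 155.6 and 166.8 CPM in control and 182.6, 184.1 and 187.1 in ADP-CM. The groups were apart (log2FC 0.20, SE 0.028, edgeR FDR 4.19e-08). HK2, the isozyme typical of tumours and a known HIF target, had 169.1, 170.5 and 162.9 CPM in control and 186.2, 183.7 and 189.3 in ADP-CM. It was also apart (log2FC 0.15, edgeR FDR 5.77e-06). GPI, the isomerase of the next step, stood at 429.0 ± 3.73 and 447.7 ± 9.20 CPM without overlap, and its edgeR FDR of 0.0162 missed the threshold of 0.01.

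Phosphofructokinase, the committed step of glycolysis, has 3 isozymes that differed. PFKM, the muscle type, had 81.9, 81.1 and 86.3 CPM in control and 97.5, 99.1 and 95.8 in ADP-CM. This was the largest rise in the glycolysis genes (log2FC 0.23, SE 0.035, edgeR FDR 1.80e-07). PFKP, the platelet type and the most abundant of the isozymes, rose from 326.9 ± 4.60 to 347.9 ± 5.36 CPM (log2FC 0.09, edgeR FDR 0.000943). That call was lost without control replicate 3 or ADP-CM replicate 1. PFKL, the liver type, had 180.1 ± 6.79 CPM in control and 170.3 ± 2.59 in ADP-CM (log2FC -0.08, edgeR FDR 0.0201), short of the threshold. The PFKFB enzymes, which make the activator of phosphofructokinase, did not pass the test either. PFKFB3, the form linked to HIF and to proliferating cells, had a log2 fold change of 0.07 with a 95% interval of 0.02 to 0.12 (edgeR FDR 0.0219). PFKFB2 had 0.08 with an interval of 0.01 to 0.14, and PFKFB4, with no more than 100 reads in any library, -0.08 with an interval of -0.36 to 0.20.

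The aldolases, TPI1 and GAPDH, which split the sugar and oxidise the products, were lower. ALDOA (chromosome 16, 30075485 to 30081778, hg19), the main aldolase, had 519.1, 513.7 and 525.7 CPM in control and 453.7, 443.9 and 469.6 in ADP-CM. The ADP-CM libraries were all lower (log2FC -0.19, edgeR FDR 3.12e-11). In GENCODE 42.8% of the exonic bases of ALDOA are shared with another gene on the same strand. Its count is uncertain if the RefSeq models used for counting overlap in the same way, which was not checked. ALDOC, which fell from 14.8 ± 1.39 to 12.1 ± 1.04 CPM, had the largest fall of the called members, log2FC -0.29 (SE 0.085, edgeR FDR 0.00555). This call needed control replicates 1 and 3 and ADP-CM replicate 1, and failed with DESeq2. TPI1 had 474.9, 459.8 and 475.9 CPM in control and 442.8, 442.1 and 448.7 in ADP-CM (log2FC -0.08, edgeR FDR 0.00135). The TPI1 call was lost without control replicate 1, without control replicate 3 and without ADP-CM replicate 1.

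GAPDH (chromosome 12, 6643678 to 6647540, hg19), the most abundant of the members, is often used as a reference gene. It had 2787, 2759 and 2735 CPM in control and 2524, 2507 and 2588 in ADP-CM. All 3 ADP-CM libraries were lower (log2FC -0.12, SE 0.016, edgeR FDR 4.60e-09). GENCODE names 65 processed pseudogenes of GAPDH. Reads that fit a gene and its pseudogene equally well have no unique alignment and are missing from these counts.

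Below GAPDH the genes parted again. PGK1, which makes the first ATP of the pathway, had 387.3, 385.0 and 391.3 CPM in control and 417.7, 415.5 and 407.9 in ADP-CM. All ADP-CM libraries were higher (log2FC 0.09, edgeR FDR 0.000329). PGAM1, a mutase with 13 named pseudogenes, had 78.2, 74.8 and 74.1 CPM in control and 65.4, 68.4 and 63.4 in ADP-CM. It fell by 0.20 in log2FC (edgeR FDR 2.05e-05). ENO1, the main enolase and the next step, stood at 1987 ± 5.47 and 2006 ± 19.7 CPM (SD, n = 3 each), with a 95% interval of the log2 fold change of -0.02 to 0.05. ENO2, the neuronal form, had no more than 67 reads in any library, and its interval of -0.57 to 0.10 is wide.

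Among the members, the lactate dehydrogenases and lactate transporters at the end of the pathway were all higher. Pyruvate kinase and the transporter partner BSG, which are not members, were lower, as given below. LDHA (chromosome 11, 18416107 to 18429972, hg19), the subunit that favours lactate production and a known HIF target, had 1461, 1466 and 1462 CPM in control and 1580, 1608 and 1565 in ADP-CM. LDHB, the subunit that favours the reverse reaction, had 981.3, 982.6 and 978.6 CPM in control and 1119, 1111 and 1091 in ADP-CM. Both rose with no overlap, LDHA by a log2 fold change of 0.12 (edgeR FDR 5.36e-08) and LDHB by 0.17 (edgeR FDR 8.81e-13). In GENCODE LDHB has 33.4% of its exonic bases in common with a second gene of the same orientation.

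SLC16A1 and SLC16A3 encode the lactate transporters MCT1 and MCT4, of which the latter is a HIF target. SLC16A3 had 90.1, 89.4 and 94.1 CPM in control and 106.3, 100.7 and 105.2 in ADP-CM (log2FC 0.19, edgeR FDR 6.53e-06). SLC16A1 rose from 244.5 ± 7.16 to 262.0 ± 3.01 CPM (log2FC 0.10, edgeR FDR 0.000936), a call that was lost without control replicate 1.

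The sequences before the start of 5 members are shown for comparison. LDHA, PGK1 and PDK1 rose and hold the motif ACGTG, as does GAPDH, which fell, while LDHB rose and does not hold it there. Each is the 250 bases before a RefSeq start site in GRCh38.p14, 5′ to 3′ on the gene's strand, with capitals for ACGTG or GCGTG on either strand. Of several start sites, the window with the most ACGTG is shown. The positions are chr11:18394313-18394562, plus strand for LDHA, chrX:78103998-78104247, plus strand for PGK1, chr2:172555840-172556089, plus strand for PDK1, chr12:6535014-6535263, plus strand for GAPDH and chr12:21657843-21658092, minus strand for LDHB.
LDHA: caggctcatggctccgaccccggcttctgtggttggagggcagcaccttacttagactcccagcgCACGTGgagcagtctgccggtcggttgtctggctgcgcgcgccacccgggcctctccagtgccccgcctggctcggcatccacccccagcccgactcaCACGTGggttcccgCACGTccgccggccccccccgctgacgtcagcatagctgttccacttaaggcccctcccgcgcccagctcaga
PGK1: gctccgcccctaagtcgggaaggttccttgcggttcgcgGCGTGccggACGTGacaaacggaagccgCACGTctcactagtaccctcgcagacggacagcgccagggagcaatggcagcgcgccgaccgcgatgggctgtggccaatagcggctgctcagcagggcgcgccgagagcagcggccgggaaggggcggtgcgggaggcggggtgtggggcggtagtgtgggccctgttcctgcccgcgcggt
PDK1: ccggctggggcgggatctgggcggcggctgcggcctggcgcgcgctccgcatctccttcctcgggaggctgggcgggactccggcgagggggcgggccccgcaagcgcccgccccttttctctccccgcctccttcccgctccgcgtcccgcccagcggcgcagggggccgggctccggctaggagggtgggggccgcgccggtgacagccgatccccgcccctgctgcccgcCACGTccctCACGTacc
GAPDH: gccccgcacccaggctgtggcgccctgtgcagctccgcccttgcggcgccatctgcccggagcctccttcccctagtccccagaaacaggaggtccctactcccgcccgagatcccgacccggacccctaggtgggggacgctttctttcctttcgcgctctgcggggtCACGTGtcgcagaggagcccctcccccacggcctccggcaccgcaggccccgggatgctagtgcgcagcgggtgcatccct
LDHB: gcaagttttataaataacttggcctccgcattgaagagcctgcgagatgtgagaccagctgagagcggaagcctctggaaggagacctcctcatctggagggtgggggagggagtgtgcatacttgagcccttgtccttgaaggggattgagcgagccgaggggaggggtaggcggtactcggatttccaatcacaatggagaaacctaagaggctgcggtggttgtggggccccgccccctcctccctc

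The LDHA window holds 5 matches of ACGTG, counting both strands, since the palindrome CACGTG counts on each. PGK1 and PDK1 hold 2 matches each, and PGK1 also holds 1 of GCGTG. The GAPDH window holds 1 palindrome, counted as 2. CACGTG is also the E-box bound by MYC and USF proteins, so a match names no factor. RefSeq start windows of 300 bases (250 before and 50 after the start) were found for 35 of the 41 members, 63 windows in all. With those 50 bases included, LDHB and the LDHA window shown hold 1 match of the second motif each, and PGK1 holds 3 of the first. ACGTG was in 24 of these windows, 38.1%, against 21.4% of all 35116 windows, and ACGTG or GCGTG was in 42, 66.7%, against 48.4%. By gene, ACGTG was in a window of 7 of the 10 raised members with a window, 4 of the 7 lowered and 8 of the 17 not past the threshold. By window it was in 9 of 32, 6 of 10 and 8 of 20, since raised members have more annotated starts. A match is a string of letters and not a site shown to be bound.

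Of 14 tested HIF targets outside glycolysis, 2 were raised, 2 were lowered and 10 were not past the threshold, shares close to the 13.5% raised and 13.0% lowered among all tested genes. VEGFA (chromosome 6, 43737921 to 43754224, hg19), the growth factor of blood vessels, had 69.9, 69.8 and 69.8 CPM in control and 91.1, 91.7 and 91.1 in ADP-CM. It had the largest change of all called members (log2FC 0.39, SE 0.036, edgeR FDR 3.64e-14), and the libraries within each group lay close together. PDK1, a kinase that shuts pyruvate dehydrogenase, had 19.0, 19.5 and 17.3 CPM in control and 24.6, 21.4 and 22.3 in ADP-CM. It rose by log2FC 0.29 (edgeR FDR 0.000444), a call lost without control replicate 3, without ADP-CM replicate 1 and with DESeq2. Its relative PDK3 had a 95% interval of -0.07 to 0.13.

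ADM and EGLN3, both strongly hypoxia-induced genes in many cells, were lower. ADM, which encodes the peptide adrenomedullin, had 257.3, 256.9 and 247.3 CPM in control and 232.4, 227.0 and 223.5 in ADP-CM. It fell by 0.16 in log2FC (edgeR FDR 5.93e-07). EGLN3, a prolyl hydroxylase that acts on HIF, had 138.4, 136.4 and 132.9 CPM in control and 122.8, 125.4 and 125.4 in ADP-CM (log2FC -0.13, edgeR FDR 0.000652). EGLN1, the main HIF hydroxylase, stood at 112.5 ± 1.28 and 118.7 ± 4.34 CPM, with a log2 fold change of 0.08 that missed the threshold (edgeR FDR 0.0519). It has 55.8% of its exonic bases in common with a second GENCODE gene of the same orientation.

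**Figure D3:**
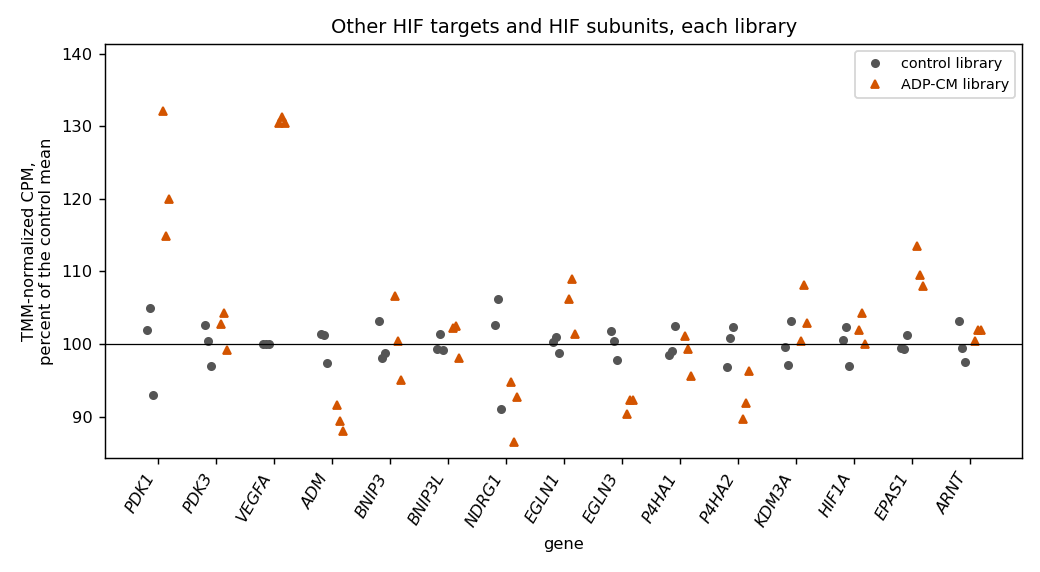
Level of the other HIF targets and the HIF subunits in each library (vertical axis, TMM-normalized CPM as percent of the control mean), circles for control and triangles for ADP-CM. VEGFA sits far above its controls in all 3 ADP-CM libraries, PDK1 and EPAS1 above and ADM and EGLN3 below their controls, and most others overlap. CA12 and ANKRD37 are left out for their low counts and CA9 for its lack of reads.

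The remaining targets were BNIP3 and BNIP3L, receptors for the removal of mitochondria, the stress gene NDRG1, the collagen hydroxylases P4HA1 and P4HA2, the histone demethylase KDM3A, ANKRD37 and the carbonic anhydrase CA12. BNIP3 stood at 31.8 ± 0.863 and 32.0 ± 1.84 CPM, with a 95% interval of the log2 fold change of -0.10 to 0.12, and has 43 named pseudogenes. BNIP3L stood at 144.6 ± 1.72 and 145.9 ± 3.55 CPM, with an interval of -0.05 to 0.07. NDRG1 was low, at 10.1 ± 0.804 and 9.26 ± 0.433 CPM. P4HA1 and KDM3A had intervals of -0.09 to 0.05 and -0.02 to 0.13. P4HA2 stood at 32.5 ± 0.921 and 30.1 ± 1.09 CPM without overlap (edgeR FDR 0.107). CA12 had 2, 0 and 19 reads in control and 3, 19 and 12 in ADP-CM, a wide spread within both groups. ANKRD37 had no more than 19 reads in any library. Neither gene passed the test (edgeR FDR 0.430 and 0.810), and small changes of either were not detectable at this depth.

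Of the subunits, EPAS1 alone passed the test. EPAS1 (chromosome 2, 46520806 to 46613836, hg19) had 92.4, 92.3 and 94.1 CPM in control and 105.5, 101.8 and 100.4 in ADP-CM. It rose by log2FC 0.14 (edgeR FDR 0.000511), lost without ADP-CM replicate 1, where it was 0.0132. HIF1A had 269.7, 274.7 and 260.2 CPM in control and 273.5, 279.8 and 268.1 in ADP-CM. These overlapped, with a log2 fold change of 0.03 and a 95% interval of -0.02 to 0.08. ARNT stood at 68.4 ± 1.96 and 69.4 ± 0.629 CPM, with an interval of -0.06 to 0.10. These are RNA levels, and HIF protein was not measured in these libraries.

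Related genes were also compared by their share of reads within a library, which does not depend on scaling. In 5 of 12 such groups the 3 ADP-CM libraries lay apart from controls. By level, 22.7% of all tested genes lay apart above controls and 22.8% below, which is another measure than a share. Beside SLC2A1, the share of PDK1 in PDK1 and PDK3 was 33.2% ± 0.965 and 37.3% ± 1.81, and that of EGLN1 in EGLN1 and EGLN3 45.3% ± 0.329 and 48.8% ± 1.01 (SD, n = 3 each). The share of LDHA in LDHA and LDHB was 59.9% ± 0.0426 in control and 58.9% ± 0.304 in ADP-CM, and that of HIF1A in HIF1A and EPAS1 74.3% ± 0.725 and 72.7% ± 0.585. An exact two-sided permutation test of 3 against 3 libraries cannot go below 0.1, and after Benjamini-Hochberg adjustment over the 12 groups these 5 stood at 0.24, so no share passed a threshold. The share of HK1 in the hexokinases, 49.0% ± 1.47 and 49.8% ± 0.273, overlapped. Per length of the canonical GENCODE transcript, GAPDH had the highest level of the members in control, 2148 CPM per kilobase, followed by ENO1 with 1116, LDHB with 753 and LDHA with 653.

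**Figure D4:**
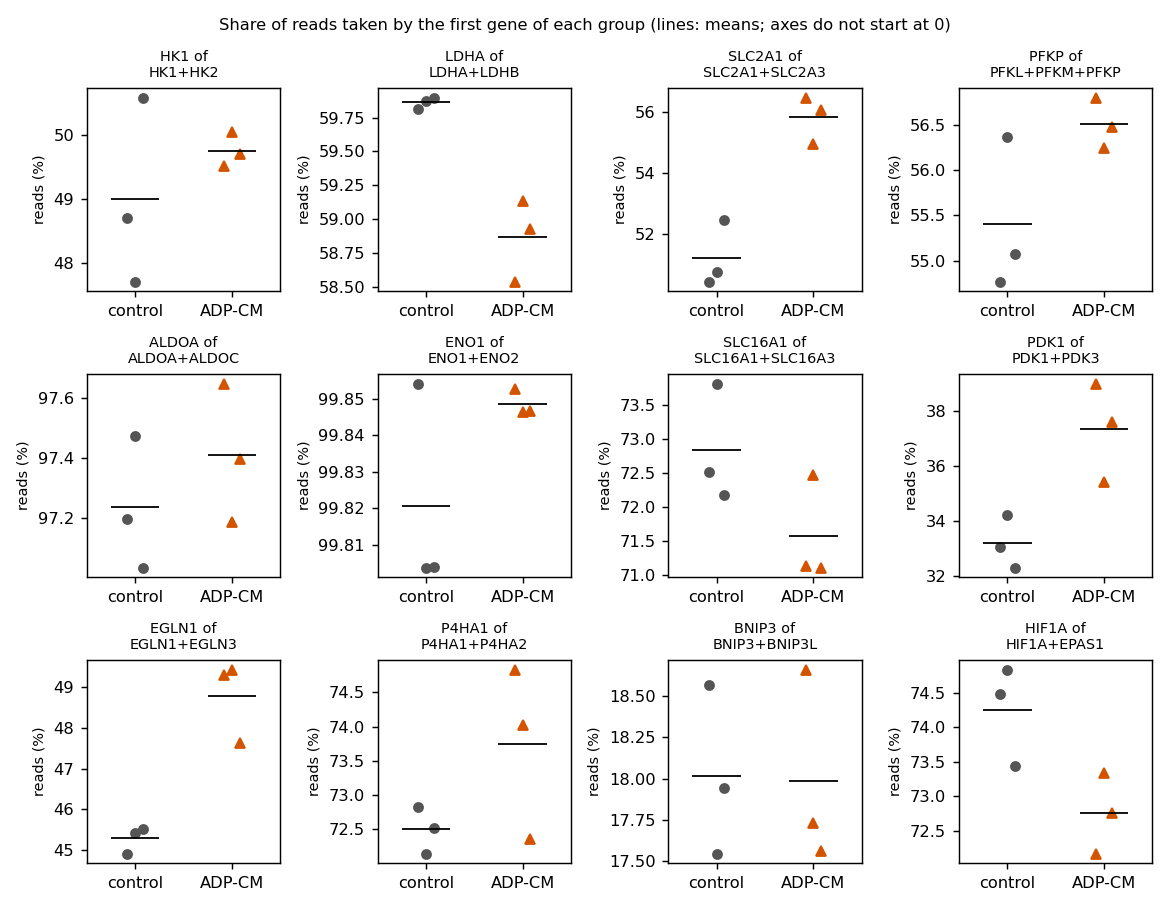
Share of reads (vertical axes, percent, not starting at 0) that the named gene takes within its group of isozymes or related genes, with 3 control libraries (circles) and 3 ADP-CM libraries (triangles) and their means (lines). The libraries separate for LDHA, SLC2A1, PDK1, EGLN1 and HIF1A, and overlap in the other 7 panels.

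The pathway's other genes were read from lists of further members. Of 25 tested further genes of glycolysis and pyruvate entry, 1 was raised and 6 were lowered at an adjusted p-value under 0.01, where all tested genes gave 13.5% and 13.0%. BSG, which escorts the lactate transporters to the membrane, fell from 506.0 ± 3.50 to 456.8 ± 10.6 CPM (log2FC -0.15), against the rise of SLC16A1 and SLC16A3. PKM, pyruvate kinase, listed under its older symbol PKM2, fell from 1985 ± 19.0 to 1897 ± 25.2 CPM (log2FC -0.06, edgeR FDR 0.000943). PDP1, the phosphatase that undoes what PDK1 does, was the gene raised, by a log2 fold change of 0.24. PGM2, which interconverts sugar phosphates, and GBE1, the glycogen branching enzyme, were lowered, at -0.23 and -0.34 on the log2 scale. Their list had a median of -0.04.

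Of 31 tested further HIF targets, 10 were raised and 6 lowered (7 and 4 with DESeq2), again beside 13.5% and 13.0% of all tested genes. LOXL2, a collagen crosslinking enzyme, rose from 16.3 ± 0.973 to 32.4 ± 0.928 CPM (log2FC 0.99, edgeR FDR 7.06e-21). STC2, a secreted glycoprotein, rose by 0.37, while TFRC, the transferrin receptor, fell by 0.19 on the log2 scale. The median log2 fold change of this list was 0.07.

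Of 17 tested HIF regulators, 4 were raised and 2 lowered (3 and 2 with DESeq2), beside 13.5% and 13.0% of all tested genes. VHL rose from 107.1 ± 0.810 to 127.7 ± 0.496 CPM (log2FC 0.25, edgeR FDR 6.81e-10), although 23.5% of its exonic bases lie opposite another gene. CITED2, a HIF-induced competitor for the coactivators of HIF, fell from 30.1 ± 1.20 to 17.9 ± 0.681 CPM (log2FC -0.75). HSP90AA1 rose by a log2 fold change of 0.20 and OS9 fell by 0.23 on the log2 scale. HIF1AN, the hydroxylase that blocks HIF's coactivators, was at 103.7 ± 2.59 and 99.4 ± 0.618 CPM, with an adjusted p-value of 0.142. EGLN2 had no more than 2 reads in any library, and in GENCODE shares 30.6% of its exonic bases with RAB4B-EGLN2 and another gene.

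Of 8 pentose phosphate genes, which branch from glycolysis after hexokinase, 3 were lowered and 0 raised by edgeR at an adjusted p-value under 0.01, and 4 were lower and 1 higher at an unadjusted p under 0.05. DESeq2 also gave 3 lowered and 0 raised. By edgeR 13.0% of all tested genes were lowered and 13.5% raised, and 21.9% each of those with a mean of at least 100 CPM. PGD fell from 139.9 ± 3.24 to 102.9 ± 1.05 CPM (log2FC -0.44, edgeR FDR 5.79e-19), and TALDO1 fell by 0.18 on the log2 scale. Of 19 genes of the citric acid cycle, 2 were raised and 5 lowered, again beside 13.5% and 13.0% of all tested genes. The lowered genes included OGDH, DLD and IDH2, with log2FC of -0.16, -0.14 and -0.26. Of the gluconeogenesis genes 2 were tested, of which PCK2 had a log2FC of 0.17 (edgeR FDR 0.00191), a call lost with DESeq2.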

How the data were processed

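The data are RNA-seq of 3 control and 3 ADP-CM libraries of RL95-2 cells. The authors aligned 50 bp single reads of stranded poly(A) libraries to hg19 with TopHat2, assigned them to RefSeq genes with HTSeq and deposited raw read counts per gene and library. Versions and the strand setting are not given in the sources used here. The HTSeq summary lines (reads on no gene, ambiguous or not uniquely aligned, the last 20.5 to 20.8%) entered neither library sizes nor tests.

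Counts were normalized by TMM and tested with edgeR 4.0.16 in R 4.3.3 (filterByExpr, 12663 of 23228 genes kept, quasi-likelihood test, Benjamini-Hochberg adjustment over all tested genes). Calls used an adjusted p of 0.01, the limit of the paper, and counts past its fold limit of 1.5 are given beside. Standard errors were derived from the log2 fold change and F statistic. All 41 members were named, and of each further list up to 4 tested genes with the smallest p-values, plus PKM, VHL, HIF1AN and CITED2. A few genes chosen in this way are not reported here. The members and lists were chosen with earlier results of these data known. Alternatives were other size factors, DESeq2 1.42.0, 2 other filters, a p-value limit of 0.05, the replicate number as a term and leaving out each library. Both tools were tested on simulated data first. Every pair of libraries in a group differed by more than sampling noise (chi-square over its degrees of freedom 1.23 to 2.03). The common biological coefficient of variation was 1.67%. Without molecular identifiers, limits from counts cover counting error only. Positions and lengths are those of GENCODE release 44 on GRCh37, and the RefSeq models counted may differ from them. Promoter windows are from RefSeq on GRCh38.p14.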

Additional observations from a re-analysis of the deposited data

How the results depend on the processing

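Of the 12 raised and 8 lowered members, 8 and 6 kept their call under all 13 alternatives planned, and all 20 kept their direction. The calls of ALDOC, TPI1, PFKP, PDK1, SLC16A1 and EPAS1 rested on single libraries or on the tool, as given above. The numbers raised and lowered ran from 9 to 13 and from 6 to 8 without single libraries, were 11 and 7 with DESeq2, and 14 and 9 at an adjusted p-value under 0.05. Members past a fold change of 1.5 numbered 0 to 1 without single libraries, the 1 being CA12 without control replicate 3 (log2FC 3.22). DESeq2 also left 1 raised gene in the citric acid cycle list and 0 in the gluconeogenesis list, where PCK2 was lost, and the cause was not tested. With the replicate block, which kept 12 and 8, no call changed. Replicates of 1 number deviated together only weakly (correlations over genes of 0.0634, 0.0255 and 0.0918), so the numbers were not taken to pair the samples, although each library correlated best with its own number.

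Genes not past the threshold changed sign as single libraries were left out. Over these fits PFKFB4 ran from -0.18 to 0.039, CA12 from -0.025 to 3.22, BNIP3 from -0.032 to 0.051, P4HA1 from -0.038 to 0.0028 and ANKRD37 from -0.39 to 0.24 in log2FC. The sign turned without control replicate 1 for ANKRD37 (0.24), without control replicate 2 for PFKFB4, CA12 (-0.022) and BNIP3 (-0.0033), without ADP-CM replicate 1 for BNIP3, without ADP-CM replicate 2 for CA12, and without ADP-CM replicate 3 for P4HA1 and ANKRD37 (0.046). Scaling by GAPDH, an alternative chosen after seeing the data, adds the size of its own fall to every gene alike. TPI1, which fell by less than GAPDH, then stood at 0.039 by construction, which tests nothing about TPI1. Depth limits CA9, CA12, ANKRD37, ENO2 and PFKFB4.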
